A study of Mus musculus with 6 samples.

Results

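Homeostatic microglia markers are the genes by which resting microglia of the brain are usually recognised. The 9 genes described here (P2ry12, P2ry13, Tmem119, Cx3cr1, Sall1, Gpr34, Fcrls, Olfml3 and Selplg) were chosen by name from the 55357 genes listed for cultured mouse astrocytes, and all 9 are in the table. Of 3 cultures transfected with a plasmid that expresses FLAG-tagged BRAF K499E from the CMV promoter (KE) and 3 nontransfected cultures (NT), RNA was sequenced 48 hours after transfection. KE is an amino acid substitution in the kinase BRAF that raises signaling through the ERK pathway. Astrocytes came from the cortex of C57BL/6 embryos on embryonic day 18, were grown in serum, were shaken 7 days after plating and were replated in a medium with HB-EGF. The labels do not say whether the 3 cultures of a group were prepared separately, so p-values measure the spread between these samples. Cultures given an empty plasmid or BRAF WT were not analysed here, so the effects of transfection and of BRAF KE cannot be told apart.

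Microglia are the resident macrophages of the brain. They descend from yolk sac progenitors, depend on signals through the receptor encoded by Csf1r, and take on their tissue identity under TGF-β. In primary astrocyte cultures, microglia are a well-known minor population, and shaking is used to detach them. The markers serve distinct roles. P2RY12 and P2RY13 are ADP receptors, GPR34 is a receptor for lysophosphatidylserine, and CX3CR1 is the receptor for fractalkine. TMEM119 is a transmembrane protein, FCRLS is an Fc receptor-like protein, and PSGL-1, encoded by Selplg, is a ligand of selectins. OLFML3 is a secreted glycoprotein, and SALL1 is a zinc finger transcription factor. Sall1 and Olfml3 are not exclusive to microglia.

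The markers lie at 7 loci of GRCm39 (Gencode vM39 gene models). P2ry12 (ENSMUSG00000036353, chr3:59123682-59170429) and P2ry13 (ENSMUSG00000036362, chr3:59114539-59118304) are neighbours on the minus strand, 5377 bp apart with no annotated gene between them. Both lie within Med12l, which is encoded on the opposite strand, and 294 of the 3206 exonic bases of P2ry12 also lie in exons of Med12l. Tmem119 (ENSMUSG00000054675, chr5:113931781-113938577) and Selplg (ENSMUSG00000048163, chr5:113956597-113970705) also share the minus strand, 18019 bp apart with no protein-coding gene between them. Fcrls (ENSMUSG00000015852, chr3:87156616-87181827, named Fcrl2 in this annotation) and Olfml3 (ENSMUSG00000027848, chr3:103629538-103645322) lie elsewhere on chromosome 3. Cx3cr1 (ENSMUSG00000052336) spans chr9:119877749-119898945, Sall1 (ENSMUSG00000031665) spans chr8:89753863-89770823 and Gpr34 (ENSMUSG00000040229) spans chrX:13489625-13507116, within Cask but with no shared exonic base. Selplg, Sall1, Olfml3 and Cx3cr1 share 541, 678, 124 and 78 exonic bases with long noncoding RNA genes on the opposite strand. The library kit keeps the strand, but the strand setting of the counting is not given in the sources used here, so reads in these bases could belong to either gene.

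RefSeq promoters (GRCm38.p6, 250 bases before to 50 after the start) were matched by symbol for 6 of the 9 markers. Tmem119, Gpr34 and Selplg have no entry. The promoters of Fcrls and Cx3cr1, which had the lowest share of their NT level left in KE, and of the neighbours P2ry12 and P2ry13, whose log2FC were −0.88 and −2.23, are printed 5′ to 3′. Capitals mark the letters GAGGAA, the core of the motif of the myeloid transcription factor PU.1.
Fcrls, chr3:87263475-87263774, minus strand: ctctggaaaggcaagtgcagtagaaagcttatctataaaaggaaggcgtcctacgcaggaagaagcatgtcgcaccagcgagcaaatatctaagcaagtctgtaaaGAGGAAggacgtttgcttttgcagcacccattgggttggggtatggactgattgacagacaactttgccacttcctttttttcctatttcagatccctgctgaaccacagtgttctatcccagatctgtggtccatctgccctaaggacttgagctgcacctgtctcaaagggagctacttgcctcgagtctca
Cx3cr1, chr9:120068247-120068546, minus strand: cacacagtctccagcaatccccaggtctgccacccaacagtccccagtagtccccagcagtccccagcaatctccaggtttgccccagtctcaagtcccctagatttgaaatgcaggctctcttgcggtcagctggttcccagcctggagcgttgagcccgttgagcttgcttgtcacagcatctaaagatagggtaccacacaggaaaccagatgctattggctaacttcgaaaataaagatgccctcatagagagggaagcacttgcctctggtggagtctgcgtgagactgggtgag
P2ry13, chr3:59210833-59211132, minus strand: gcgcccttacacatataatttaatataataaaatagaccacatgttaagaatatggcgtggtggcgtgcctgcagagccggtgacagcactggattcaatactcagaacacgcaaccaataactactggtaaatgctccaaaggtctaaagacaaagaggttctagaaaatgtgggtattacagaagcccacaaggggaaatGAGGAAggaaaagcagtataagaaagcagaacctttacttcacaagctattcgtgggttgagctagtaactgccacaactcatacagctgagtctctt
P2ry12, chr3:59262936-59263235, minus strand: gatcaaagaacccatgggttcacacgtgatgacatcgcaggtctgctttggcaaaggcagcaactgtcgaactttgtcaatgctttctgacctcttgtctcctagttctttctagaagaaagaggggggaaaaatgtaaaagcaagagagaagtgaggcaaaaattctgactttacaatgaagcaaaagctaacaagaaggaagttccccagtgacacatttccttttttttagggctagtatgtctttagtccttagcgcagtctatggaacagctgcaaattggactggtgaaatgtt

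GAGGAA was searched on both strands and occurred once in the Fcrls promoter, with its first base at −144 from the start site, and once in that of P2ry13, at −48. It was in none of the other promoters of these markers, and 28.3% of all 32851 promoters of this length hold it. The longer form GAGGAAGT, which contains GAGGAA and is in 3.20% of all promoters, and GAAANNGAA, a core of the interferon-stimulated response element that is in 8.56%, were in none of the 8 promoters of the 6 markers. A match is a description of the letters in this window.

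Values are normalized counts, made from Salmon gene counts and size factors, and are not all exact multiples of 1 value per culture. A change is given as log2FC, KE minus NT, of the normalized count plus 1, from limma with Benjamini-Hochberg adjustment over the 15280 genes with a mean of at least 10. All 9 markers passed this filter. By this test, 8 of 9 markers fell in KE and Sall1 did not pass, against a background of 26.0% of tested genes that fell and 25.3% that rose. In the same 8 markers all 3 KE values lay below all 3 NT values, as they did in 29.9% of tested genes. The median log2FC of the markers was −2.63, beside 0.002 over all tested genes. In bulk RNA, fewer cells of a type and less RNA per cell cannot be told apart.

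**Figure D1:**
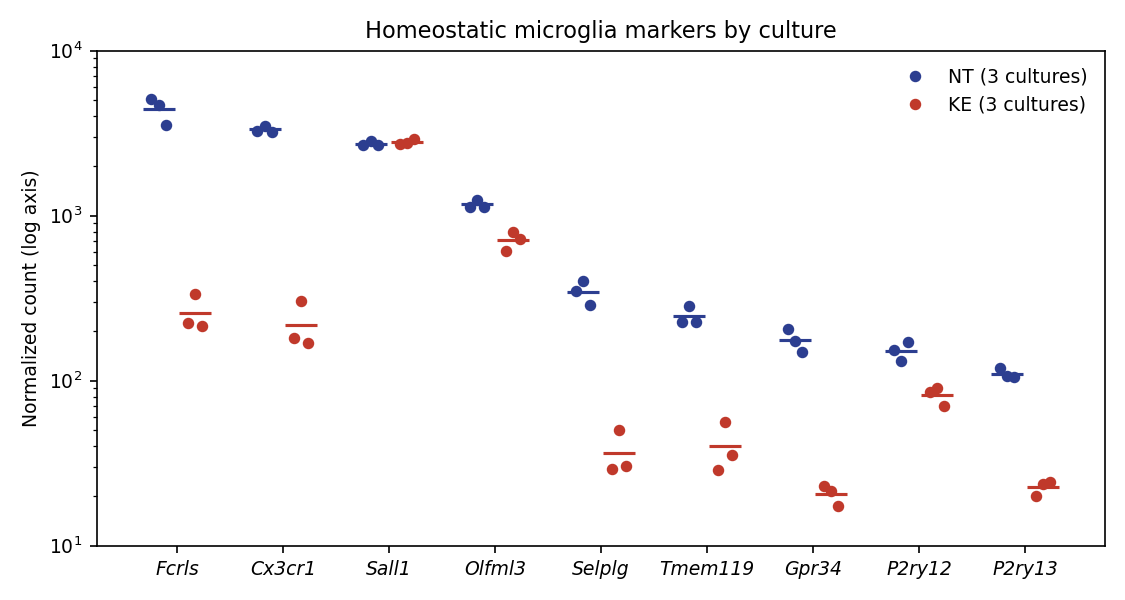
Normalized counts (log axis) of the 9 markers in each of the 3 NT and 3 KE cultures, ordered by their mean in NT; points are cultures and bars are group means. The KE points lie below the NT points for all markers except Sall1, whose groups overlap.

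The cultures of a group were alike, and the transfected gene was higher in KE. Normalized counts of Braf were 894 ± 73.1 in NT and 36979 ± 3464 in KE (SD, n = 3; log2FC 5.37). Approximate depth lay between 24500000 and 34100000 reads, lowest in KE replicate 2. That culture had the highest KE value for 6 of the 9 markers and also the highest KE sum over 10 pan-myeloid genes (2920, against 2176 and 2039 in KE replicates 1 and 3). Astrocyte markers were abundant in all cultures, with summed levels of 113309 to 118554 in NT and 159245 to 161892 in KE, and 7 of 10 rose and 1 fell. The 10 pan-myeloid genes summed to 24249 to 30964 in NT and 2039 to 2920 in KE, and none was at 0. Of the other cell types a cortical culture can hold, 7 of 9 tested oligodendrocyte lineage markers fell and 1 rose, 3 of 8 fibroblast and mural markers fell and 3 rose, 2 of 8 neuronal markers fell and 2 rose, and 2 of 3 endothelial markers fell. For the neuronal markers these shares are near the background of 26.0% lower and 25.3% higher over all tested genes. The part of these cell types in the marker levels was not tested.

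Fcrls kept the lowest share of its NT level. The normalized counts were 5069, 4717 and 3525 in NT and 223, 334 and 213 in KE. The highest KE culture was an order of magnitude below the lowest NT culture. The NT mean was 4437 ± 809 and the KE mean 257 ± 67.0 (SD, n = 3), so 5.78% of the NT level was present in KE (log2FC −4.12, standard error 0.17, limma adjusted p = 2.0e-08). Only 0.223% of tested genes had a lower log2FC.

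Cx3cr1 fell nearly as far as Fcrls. NT cultures had 3266, 3505 and 3237 normalized counts and KE cultures 181, 305 and 170. The NT cultures differed little among themselves, while KE replicate 2 stood above the other KE cultures. The means of 3336 ± 147 (SD, n = 3) and 219 ± 74.6 (SD, n = 3) left 6.56% of the NT level (log2FC −3.97, standard error 0.18, limma adjusted p = 2.7e-08). The ratio of Cx3cr1 to Fcrls was 0.644, 0.743 and 0.918 in NT and 0.814, 0.913 and 0.799 in KE, so the groups overlapped in this ratio.

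Selplg and Gpr34 fell by similar amounts. Selplg was 348, 404 and 287 in NT and 29.3, 50.3 and 30.2 in KE, with means of 346 ± 58.5 (SD, n = 3) and 36.6 ± 11.9 (SD, n = 3), which is 10.6% of the NT level (log2FC −3.24, limma adjusted p = 5.8e-07). The ranges did not overlap, and KE replicate 2 was again the highest KE culture. Gpr34 was 206, 174 and 149 in NT and 23.1, 21.5 and 17.4 in KE, so that 11.7% of the NT level was left (176 ± 28.4 against 20.7 ± 2.94, SD, n = 3; log2FC −3.03, limma adjusted p = 5.4e-07). For Gpr34, KE replicate 2 lay between the other KE cultures.

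Tmem119 fell to 16.4% of its NT level. The NT cultures had 227, 283 and 226 normalized counts and the KE cultures 28.9, 56.3 and 35.3. The groups were apart, with KE replicate 2 highest in KE. NT averaged 245 ± 32.4 and KE 40.2 ± 14.3 (SD, n = 3), with a log2FC of −2.63 (standard error 0.23, limma adjusted p = 4.0e-06).

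The ADP receptors P2ry13 and P2ry12 both fell. P2ry13 was 119, 107 and 105 in NT and 19.9, 23.8 and 24.4 in KE, with 110 ± 7.56 and 22.7 ± 2.46 (SD, n = 3), or 20.6% of the NT level (log2FC −2.23, standard error 0.20, limma adjusted p = 4.3e-06). P2ry12 was 153, 131 and 171 in NT and 85.2, 90.6 and 70.5 in KE. Its groups were separated by less than the other receptors', with 152 ± 20.1 and 82.1 ± 10.4 (SD, n = 3), or 54.1% of the NT level (log2FC −0.88, standard error 0.17, limma adjusted p = 0.0011). Med12l, whose exons overlap those of P2ry12, had 533 ± 13.98 in NT and 358 ± 13.4 in KE (SD, n = 3; log2FC −0.57), and its part in the P2ry12 value was not tested.

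Ratios between markers within a culture, taken on normalized counts and not per length, were compared between the groups. P2ry12 was 1.29, 1.23 and 1.63 times P2ry13 in NT and 4.28, 3.81 and 2.89 times P2ry13 in KE, with no overlap. Tmem119 was 0.652 to 0.789 times Selplg in NT and 0.988 to 1.17 times Selplg in KE, also with no overlap. An exact two-sided permutation test of each log2 ratio gave p = 0.1, the smallest that 3 against 3 cultures allow. The same exact permutation test gave p = 0.5 for Cx3cr1 over Fcrls, and after adjustment over the 3 ratios the values were 0.15, 0.15 and 0.5, so no ratio passed and none could have.

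Olfml3 fell to 60.5% of its NT level. Its normalized counts were 1136, 1239 and 1134 in NT and 614, 791 and 719 in KE. Both groups were tight enough that they did not overlap (1170 ± 60.1 against 708 ± 89.1, SD, n = 3). The log2FC was −0.73 (standard error 0.10, limma adjusted p = 8.3e-05). Among tested genes, 9.89% had a lower log2FC.

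Sall1 did not pass the test. It had 2682, 2856 and 2678 normalized counts in NT and 2717, 2774 and 2912 in KE, and the groups overlapped. The means were 2739 ± 102 and 2801 ± 99.8 (SD, n = 3), and the log2FC of 0.03 had a 95% interval of −0.10 to 0.16 (limma adjusted p = 0.67). The interval leaves out a fall of the size seen in any of the other markers, including Olfml3 (−0.94 to −0.52) and P2ry12 (−1.24 to −0.51). In these cultures, therefore, the Sall1 level did not move with that of the other markers of the list.

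**Figure D2:**
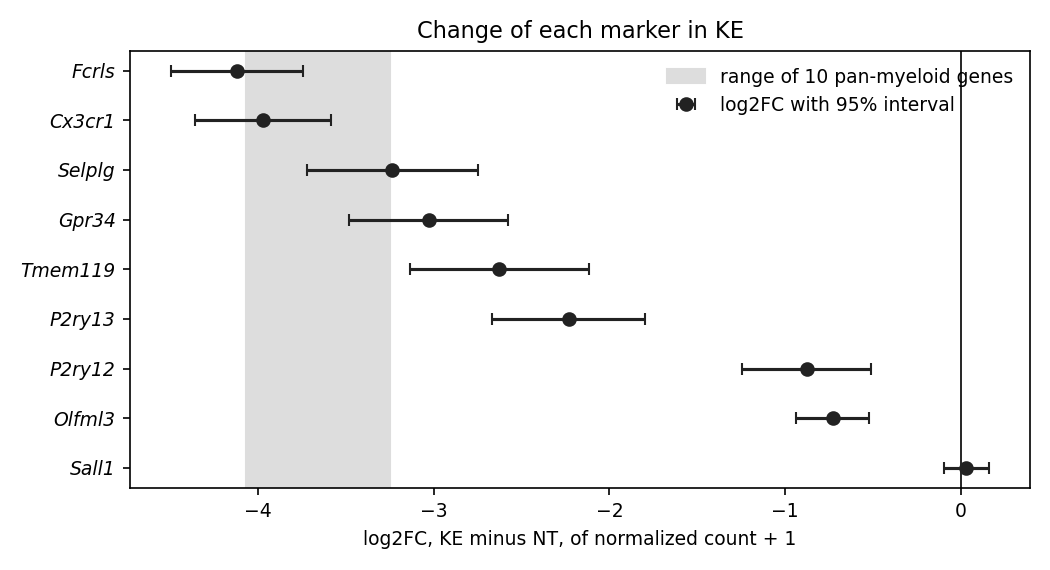
The log2FC (KE minus NT, of the normalized count plus 1) of each marker with its 95% interval from limma; the grey band spans the log2FC of 10 pan-myeloid genes (−4.07 to −3.25). Fcrls, Cx3cr1, Selplg and Gpr34 have intervals that reach the band, and P2ry13, P2ry12, Olfml3 and Sall1 lie to its right, as does the interval of Tmem119.

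The order of levels among the markers was taken per length, as normalized counts per kb of exon. In NT, Fcrls had the highest level (1036 ± 189 per kb, SD, n = 3), followed by Cx3cr1 (716 ± 31.6), Sall1 (402 ± 14.9), Olfml3 (190 ± 9.75), Selplg (80.9 ± 13.7), Tmem119 (75.01 ± 9.91), Gpr34 (57.5 ± 9.27), P2ry12 (47.3 ± 6.26) and P2ry13 (33.3 ± 2.29). Selplg and Tmem119, and likewise Gpr34 and P2ry12, overlapped between cultures, while the other neighbours in this order did not. Per kb of the longest transcript instead, the order was the same, but Selplg (124 to 174) and Tmem119 (90.7 to 113) no longer overlapped. In KE the order of levels per kb was led by Sall1 (411 ± 14.6, SD, n = 3) and Olfml3 (115 ± 14.5), and Fcrls (59.9 ± 15.6) and Cx3cr1 (47.0 ± 16.0) came next with overlapping values. P2ry12 followed with 25.6 ± 3.24 per kb, now above Selplg, Tmem119 and Gpr34. Tmem119 (12.3 ± 4.38), Selplg (8.56 ± 2.78), P2ry13 (6.87 ± 0.745) and Gpr34 (6.74 ± 0.958) followed, and each overlapped the next in this order.

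A second comparison asked whether each marker fell more or less than genes that all myeloid cells carry. The reference was the mean log2 level of 10 pan-myeloid genes (Ptprc, Laptm5, Tyrobp, Fcer1g, Cd53, Spi1, Csf1r, Aif1, Itgb2 and Itgam), subtracted in each culture. All 10 fell, by a median log2FC of −3.45 and to 8.41% of their summed NT level. Relative to them the median tested gene was 3.50 higher in KE, so that 98.1% of tested genes were called higher and 0.223% lower. Being called higher is therefore the background of this comparison, and the size of the relative difference carries the information.

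Fcrls and Cx3cr1 were called lower than the reference, with relative log2FC of −0.62 (limma adjusted p = 0.0097) and −0.47 (limma adjusted p = 0.048). The call of Cx3cr1 was lost when any culture other than KE replicate 2 was left out or when no variance trend was used, and that of Fcrls was lost without KE replicate 1 or without NT replicate 1 (adjusted p = 0.074 and 0.069). Selplg (0.26, adjusted p = 0.34) and Gpr34 (0.47, adjusted p = 0.14) did not pass in this limma fit. For Selplg the 95% interval without moderation was −0.07 to 0.60, so a fall alike to that of the reference is within it. Gpr34 passed with a pseudocount of 5 (0.65, adjusted p = 0.027) and with an unmoderated spread (adjusted p = 0.046). Relative to a second list of pan-myeloid genes, its log2FC was 0.21 and did not pass (limma adjusted p = 0.50).

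The remaining markers were called higher than the reference, in the order Tmem119 (0.87, limma adjusted p = 0.0022), P2ry13 (1.27, limma adjusted p = 1.3e-04), P2ry12 (2.62), Olfml3 (2.77) and Sall1 (3.53). All genes share the same 6 reference values, and limma treated the spread as known for all genes (its prior degrees of freedom were infinite), so the p-values of this comparison rest on 1 shared estimate. With each gene's own spread, the limma adjusted p was larger for Tmem119 (0.013), P2ry13 (0.0039), P2ry12 (5.8e-04), Olfml3 (2.0e-04) and Sall1 (1.9e-04), and smaller for Fcrls (0.0025), Cx3cr1 (0.044), Gpr34 (0.046) and Selplg (0.097).

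**Figure D3:**
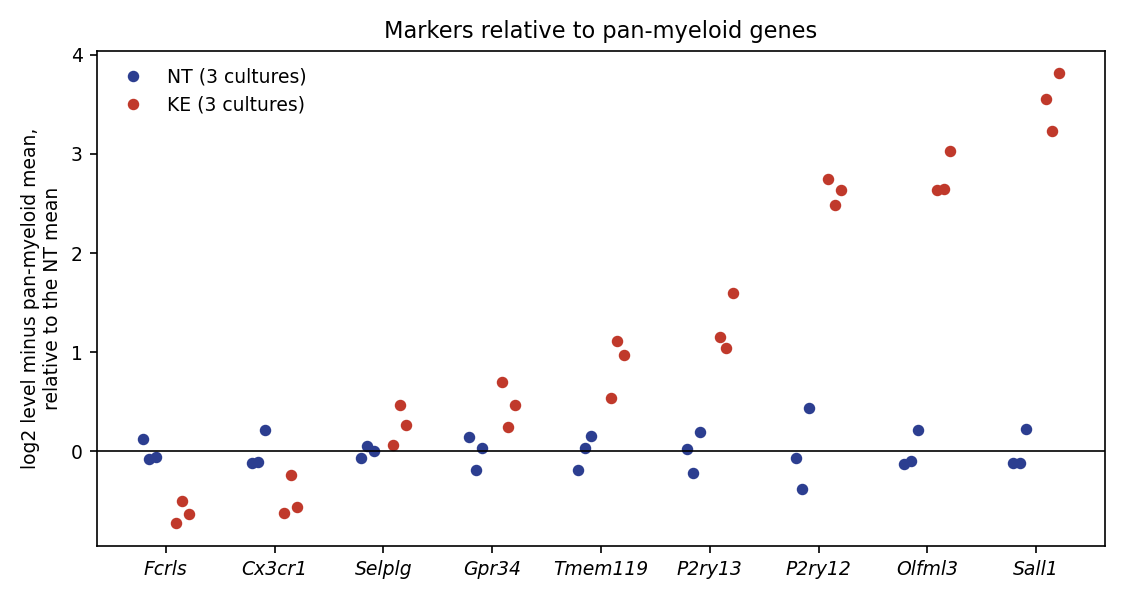
The log2 level of each marker minus the mean log2 level of 10 pan-myeloid genes in the same culture, shown relative to the NT mean (3 NT and 3 KE cultures, points). KE points lie below the NT points for Fcrls and Cx3cr1, just above them for Selplg, and further above them from Gpr34 to Sall1, where they reach 3.23 to 3.81.

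Other genes of the homeostatic signature also differed widely in their change. Of 20 listed, 17 were tested: 12 fell, 3 rose and 2 did not pass, with a median log2FC of −0.83, against 26.0% of all tested genes lower and 25.3% higher. The share that rose is below that background. These counts include Adora3, Ltc4s and Crybb1, which passed the filter only through the group with their higher level. With a mean of at least 50 as the filter, 9 genes of the list fell and 1 rose. Bin2 (log2FC −3.74) and Csf3r (log2FC −3.34) fell by amounts within the range of the pan-myeloid genes. By contrast, Golm1 (log2FC −0.59) and Pros1 (log2FC −0.20) fell less, and Sparc (log2FC −0.15) did not pass. Genes of this list need not be exclusive to microglia, and which cells of the cultures carried each gene was not tested. The adenosine receptor gene Adora3 (38.1 ± 8.62 to 2.78 ± 0.870, SD, n = 3; log2FC −3.37) and the leukotriene C4 synthase gene Ltc4s (25.7 ± 7.08 to 1.34 ± 0.445, SD, n = 3; log2FC −3.49) fell from low levels. Adora3 and Ltc4s passed the filter only through NT, so their falls are a description. Those that rose were Cst3, the protease inhibitor cystatin C, and at low levels Gpr165 (log2FC 1.48) and Crybb1 (log2FC 1.69). Cst3 went from 30224 ± 1926 in NT to 74531 ± 7460 in KE (SD, n = 3, log2FC 1.30). Crybb1, with a mean of 4.67 in NT and 17.4 in KE, passed the filter only through KE, so its rise is likewise a description. Siglech, a lectin receptor often used to mark microglia, was listed at 0 in all 6 cultures.

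The regulators of microglial identity fell in 11 of 18 cases and rose in 3, with a median log2FC of −0.50. The share that rose is below the 25.3% of all tested genes and the share that fell above the 26.0%. Spi1, which encodes PU.1, fell from 830 ± 208 to 65.9 ± 27.5 (SD, n = 3; log2FC −3.69), and Irf8, its partner transcription factor, from 665 ± 55.9 to 96.2 ± 16.2 (SD, n = 3; log2FC −2.79). Csf1r, the receptor that microglia need to survive, fell from 3080 ± 569 to 276 ± 1.86 (SD, n = 3; log2FC −3.46). Spi1 and Csf1r are also in the pan-myeloid reference. The genes of both ligands of that receptor rose, Csf1 from 7401 ± 658 to 11738 ± 846 (SD, n = 3; log2FC 0.67) and Il34 from 182 ± 13.4 to 342 ± 34.1 (SD, n = 3; log2FC 0.90). In the TGF-β pathway, Tgfb1 (log2FC −2.01) and Nrros (log2FC −2.60), which encodes the protein that anchors latent TGF-β1 on microglia, fell. The receptor genes Tgfbr1 (log2FC −0.92) and Tgfbr2 (log2FC −0.48) fell as well, while Smad3 rose (log2FC 0.76). Smad2 (log2FC 0.04, limma adjusted p = 0.64) and Smad4 (log2FC −0.06, limma adjusted p = 0.53) did not pass.

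Of 17 tested genes for ligands, enzymes and coupled proteins of the markers, 8 fell, 4 rose and 5 did not pass (median log2FC −0.22), beside 26.0% of all tested genes lower and 25.3% higher, so the share that rose is near the background. Leaving out KE replicate 1 or NT replicate 1 reduced those that fell to 5. Cx3cl1, which encodes fractalkine, the ligand of CX3CR1, rose from 912, 1048 and 889 in NT to 2938, 2971 and 2997 in KE (log2FC 1.65, limma adjusted p = 2.6e-08), with no overlap. The fractalkine sheddase genes Adam10 (log2FC −0.33) and Adam17 (log2FC −0.15) fell slightly. Gcnt1, an enzyme that builds the glycans PSGL-1 needs to bind selectins, fell to 12.6% of its NT level. Other listed enzymes that modify PSGL-1 did not share this fall. Tpst1 fell slightly (log2FC −0.22), St3gal4 (log2FC −0.08) and Tpst2 (log2FC 0.06) did not pass, and Fut7 was too low to test. Selp, encoding P-selectin, fell with a log2FC of −0.75. Of the ATP- and ADP-cleaving enzymes, Entpd1 fell (log2FC −0.68) although its groups overlapped, and Entpd2 rose (log2FC 1.18). Kcnk13, a microglial potassium channel that P2RY12 activates, fell from 102 ± 9.16 to 39.5 ± 8.62 (SD, n = 3; log2FC −1.36). The lysophosphatidylserine synthase gene Abhd16a rose (log2FC 0.53) and the lipase gene Abhd12 fell (log2FC −0.38).

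Among the other nucleotide receptors and genes of the P2ry12 locus, 3 of 7 tested fell, none rose and the median log2FC was −0.12. With 26.0% of all tested genes lower, a count of this size says little about the list. The genes that fell were P2ry6, a UDP receptor (655 ± 57.8 to 225 ± 12.4, SD, n = 3; log2FC −1.54), P2rx7, an ATP-gated channel (log2FC −0.72), and Med12l. P2ry14, which lies in the same cluster as P2ry12, had 22.9 ± 10.3 normalized counts in NT and 19.6 ± 4.75 in KE (SD, n = 3) and did not pass, and Gpr171 of that cluster was listed at 0 in all 6 cultures.

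**Figure D4:**
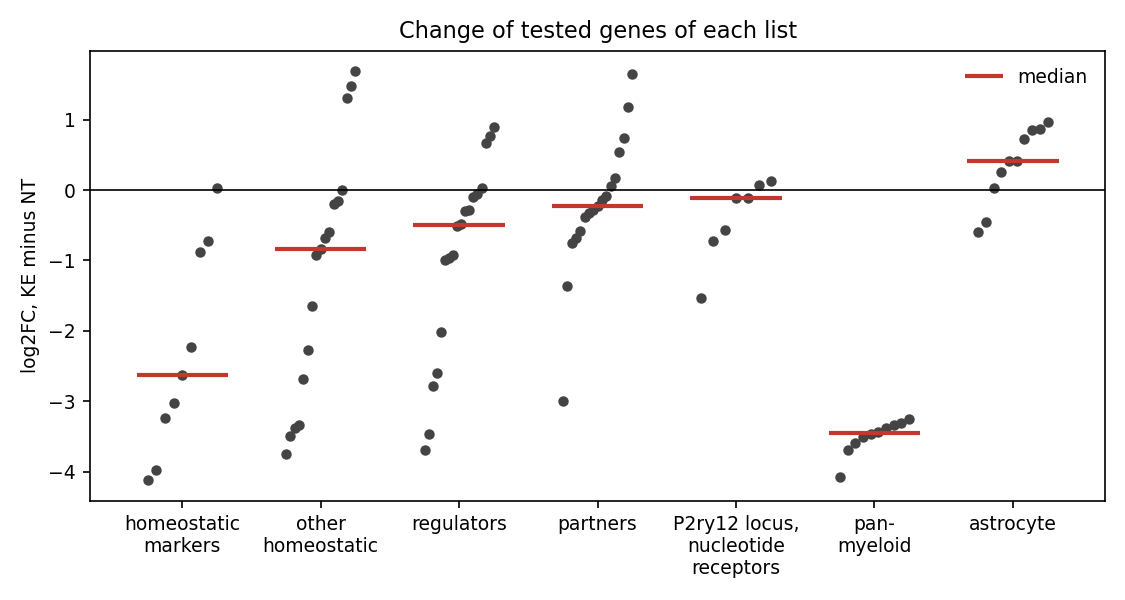
The log2FC (KE minus NT) of each tested gene in 7 lists, with points for genes and a red bar for the median of each list. The pan-myeloid genes lie within −4.07 to −3.25, whereas the homeostatic markers run from −4.12 to 0.03 and the other homeostatic genes from −3.74 to 1.69.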

How the data were processed

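RNA-seq of 3 KE and 3 NT astrocyte cultures was analysed, grouped by the sample labels. The signal deposited for each of 55357 genes is a normalized count, made by the authors from Salmon gene counts and DESeq2 size factors after trimming with Trim Galore and alignment with STAR. The study's methods name GRCm39 with Gencode vM28 for mouse and an adjustment for unnamed batches, so no batch could be modelled. Depth was approximated from the most frequent low value, taken as 1 read. Whole reads were not recovered, because 75.2% to 77.7% of low values came within 0.1 of a multiple of it, so count models were not used.

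Genes with a mean of 10 or more were fitted as log2(normalized count + 1) with limma 3.58.1 (R 4.3.3), using a variance trend. DEGs had a Benjamini-Hochberg adjusted p under 0.05 (two-sided). The pseudocount makes the log2FC of low genes too small. Coordinates came from Gencode vM39 on GRCm39, which holds 54749 of the 55357 identifiers. The markers and lists were chosen with earlier results of these data known. Named genes are the 9 markers, Braf, genes of the lists or overlapping a marker, and the 10 genes with the profile nearest to the markers' mean. Alternatives were other pseudocounts, filters, scalings and reference genes, no variance trend, the replicate number as a block, and leaving out each culture. Unmoderated spread and longest-transcript lengths were added after the data were seen. A few listed genes are counted but not reported by name.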

Additional observations from a re-analysis of the deposited data

How the results depend on the processing

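No marker changed its call or its sign against NT under any of the 14 alternatives, with a log2FC of −0.98 to −0.74 for P2ry12, −4.32 to −4.00 for Fcrls and 0.004 to 0.06 for Sall1. The number of markers called lower than the pan-myeloid reference, 2 in the report, was 1 with no variance trend and 0 to 2 when each culture was left out in turn. It was 0 without KE replicate 1 or NT replicate 1, and it stayed 2 with the replicate number as a block. Relative to the second reference list, the log2FC of Cx3cr1 was −0.73 and that of Selplg 0.01. With a mean of at least 50, the number of other homeostatic genes that fell was 9 and the number that rose was 1. The number of partner genes that fell was 5 to 7 over the left-out cultures. Per kb of the longest transcript, the NT levels of Selplg, Tmem119, Gpr34 and P2ry12 were 149, 98.4, 68.2 and 56.9, in the same order. No result changed sign.

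Same-numbered KE and NT cultures correlated at 0.059 to 0.066 in their deviations from the group means, under the limit of 0.1. Pairs with different numbers correlated at −0.050 to −0.010, so each culture correlated best with its own number. The main fits did not model the number, and whether it marks cultures prepared together cannot be told from these values. With the replicate number as a block, 8 markers still fell, no call of a marker changed and the count of partner genes that fell stayed 8. The block lowered the standard error for some markers (Fcrls, 0.17 to 0.12) and raised it for others (P2ry12, 0.17 to 0.18). Depth in KE limits the low markers: Gpr34 had about 17.2 to 25.5 reads per KE culture.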

Other observations

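Genes of other myeloid states were also measured. Of 11 listed markers of macrophages at the borders of the brain, 7 were tested, 6 fell and 1 did not pass, with a median log2FC of −3.48, beside 26.0% of all tested genes that fell. Stab1, a scavenger receptor, was 5050 ± 69.5 in NT and 193 ± 73.9 in KE (SD, n = 3; log2FC −4.77, limma adjusted p = 1.8e-08). Mrc1, the mannose receptor, was 487 ± 74.4 and 18.2 ± 0.746 (SD, n = 3; log2FC −4.66). Pf4, a platelet-factor chemokine, was 438 ± 105 and 19.1 ± 2.87 (SD, n = 3; log2FC −4.43). Stab1, Mrc1 and Pf4 had the lowest log2FC of the list. Siglec1 (log2FC −3.48), Ms4a7 (log2FC −3.13) and Cbr2 (log2FC −0.75) fell less, and F13a1 (log2FC −0.18) did not pass. Cd163, Lyve1, Clec10a and Folr2 were too low to test, with NT means of 0.258, 2.01, 0.659 and 12.9. Of 11 tested genes of activated microglia, 7 fell, 3 rose and 1 did not pass (median log2FC −0.77), and the share that rose is near the 25.3% of all tested genes. Among them Clec7a (log2FC −3.61), Cst7 (log2FC −3.37) and Trem2 (log2FC −3.06) fell. The abundant secreted protein gene Spp1 rose from 73793 ± 3822 to 115404 ± 1807 (SD, n = 3; log2FC 0.65). In KE the 10 pan-myeloid genes summed to only 2039 to 2920, and which cells carried Spp1 was not tested.

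The 10 tested genes whose centred log2 profile over the 6 cultures was nearest to the mean profile of the markers were Tgfbi, Abcc3, Adgb, Ang, Lpcat2, Prkcb, Tfpi, Cd180, Plxdc1 and Abi3, at Euclidean distances of 0.214 to 0.322. Tgfbi, an extracellular matrix protein gene named for its induction by TGF-β, went from 1208 ± 38.0 in NT to 226 ± 22.9 in KE (SD, n = 3). Cd180, a Toll-like receptor homologue of myeloid and B cells, went from 859 ± 140 to 175 ± 18.02 (SD, n = 3). Of these 10, Lpcat2 is on the list of other homeostatic genes.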
